A study of Mus musculus with 16 samples.

Results

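The mitochondrial carriers of the SLC25 family were followed in the quadriceps of mice that carry an Ant1 transgene. Ant1 is the older name of Slc25a4, itself a member of the family. The members were all gene symbols made of Slc25a and a number. There were 46 of them among the 19108 genes listed for each library. The study sequenced polyadenylated RNA of quadriceps, a fast-twitch thigh muscle, from C57BL/6 mice aged 6 months on regular chow. Wild-type (WT) mice, 4 females and 4 males, were compared with transgenic (Tg) mice of genotype ANT1(Tg)/+, again 4 females and 4 males, each mouse giving 1 library. Controls were littermates when possible. The labels used here do not give the promoter, the copy number or the founder line of the transgene, and the title of the series places it in a study of mitochondrial stress and muscle wasting.

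SLC25 carriers are proteins of the inner mitochondrial membrane that exchange nucleotides, phosphate, organic acids, amino acids and cofactors between the cytosol and the matrix. They are encoded in the nucleus, made in the cytosol and brought into the inner membrane by the TOM complex, the small TIM chaperones and the TIM22 complex. In muscle the most used of them are the ADP/ATP carrier encoded by Slc25a4, which exports ATP made in the matrix, the phosphate carrier Slc25a3, and the aspartate/glutamate and oxoglutarate/malate carriers, which together move reducing equivalents.

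Levels are given as counts per 1000000 (CPM) scaled by library size. Total counts were 17.44 to 30.68 per library in units of 1000000. Besides Slc25a4, the glutathione carrier gene Slc25a39 rose and the coenzyme A-linked Slc25a16 fell in Tg muscle with no overlap between genotypes. Such members were no more frequent than among all tested genes, of which 5.23% lay entirely above and 2.69% entirely below. A further 7 carriers were called with overlapping genotypes. Of the 46 members, 39 had enough counts to test, and 10 of these were called at an adjusted p under 0.05 (edgeR quasi-likelihood test, averaged over the sexes). The background was high: 30.4% of the 13666 tested genes were called. In Tg muscle 6 members were called higher, beside 17.2% of all tested genes, and 4 lower, beside 13.3%. The share of members called was thus no larger than that of all genes. The median log2 fold change was -0.04 over the 38 tested members other than Slc25a4 and -0.01 over all tested genes.

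Before the members, the makeup of the libraries has to be given, since some members move with it. The summed CPM of 10 muscle markers was 159400 to 250100 in WT and 149000 to 212400 in Tg libraries. In males it was 199000 to 228500 in WT and 149000 to 197500 in Tg, with no overlap, while in females the ranges overlapped. Of the 10 markers 1 was called higher and 2 lower, beside 17.2% and 13.3% of all tested genes. Whether this bears on the carriers was not tested. Fat markers differed widely. Cidea, a lipid droplet protein of adipocytes, was at 7.89 to 68.7 CPM in 4 libraries (WT female 1, WT female 2, WT male 1 and Tg female 4) and at most at 1.61 CPM in the other 12. Ucp1, the uncoupling protein of brown fat, was at 143, 153 and 252 CPM in WT female 1, WT female 2 and Tg female 4, and below 1 CPM elsewhere. These 4 libraries, 3 WT and 1 Tg, are called rich in fat markers below. The sum of 8 adipocyte markers was 172 to 3233 CPM in WT and 174 to 1324 CPM in Tg libraries. None of the 9 adipocyte markers was called between genotypes, and their median log2 fold change was -0.81. The sum of 7 slow-fibre markers was 38.2 to 106 CPM in WT and 42.8 to 1088 CPM in Tg libraries. The 1088 CPM came from Tg female 2 alone, and every other Tg library was at 42.8 to 147 CPM. Of the 7 markers 5 were called higher, beside 17.2% of all tested genes, and their median log2 fold change was 3.08. The part of fibre type in the values of the carriers was not tested. In bulk tissue, fewer cells of a type and less RNA per cell cannot be told apart. Nothing in the labels says whether mice of a group shared a litter, so p-values measure the spread between these mice.

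**Figure D1:**
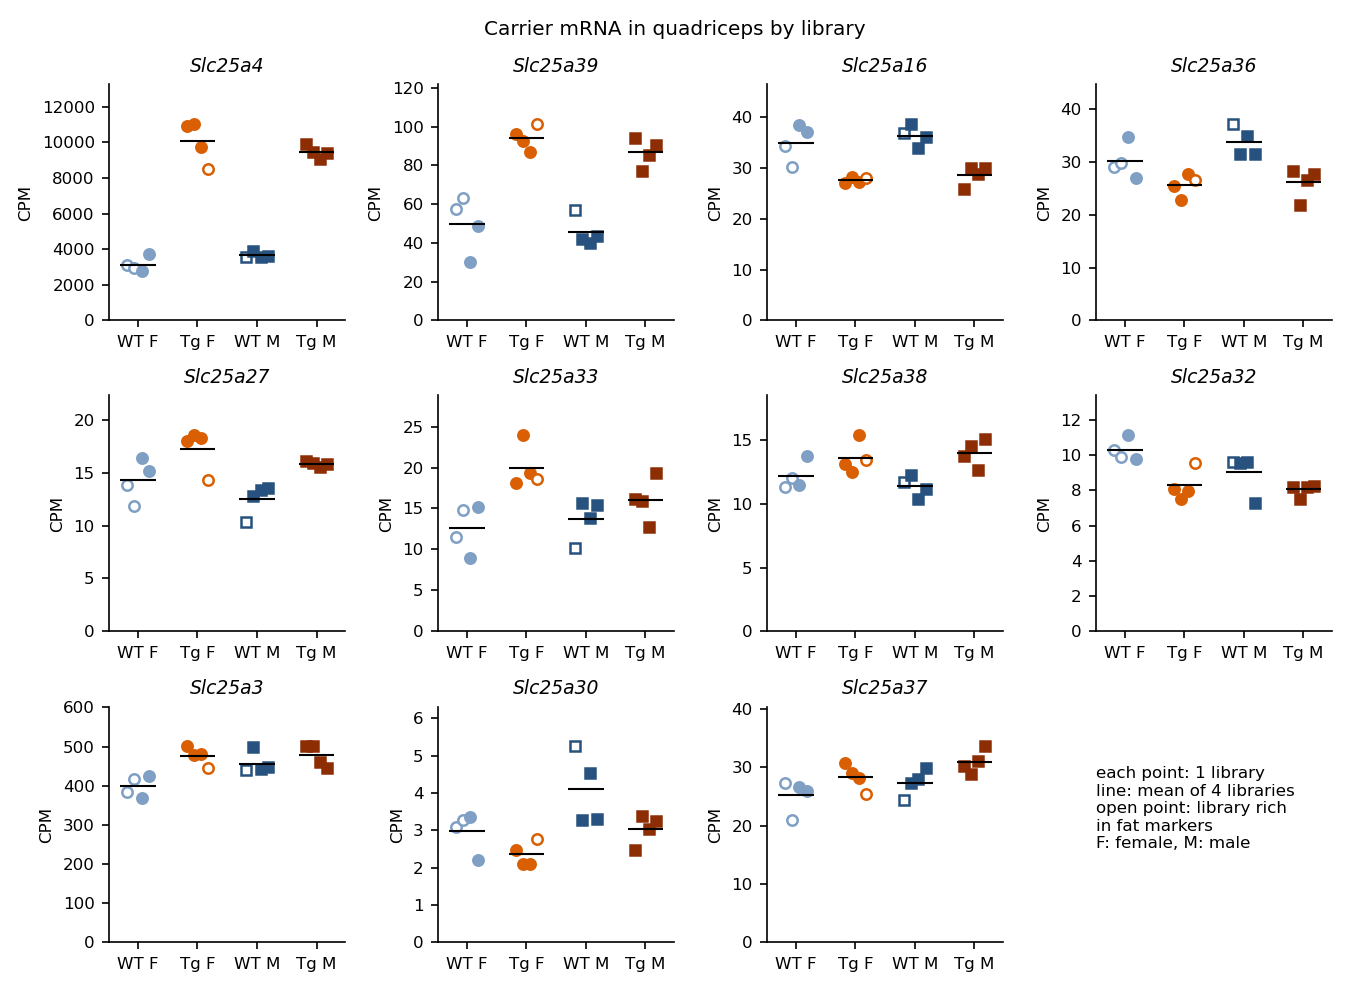
Normalised level (CPM, linear axis from 0) of Slc25a4 and the 10 other members with the smallest adjusted p, 1 point per library and a line at the mean of the 4 libraries of a group. Open points are the 4 libraries rich in fat markers. Slc25a4 and Slc25a39 lie higher in all 8 Tg libraries than in any WT library, and Slc25a16 lies lower in all 8.

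Slc25a4, the gene of the transgene, checks the labels. It lies on chromosome 8 from 46206797 to 46211284 on the minus strand (build mm10, ENSMUSG00000031633.4). In WT females it was at 3088, 2925, 2792 and 3720 CPM and in WT males at 3551, 3919, 3572 and 3622 CPM. In Tg females it was at 10940, 11040, 9727 and 8507 CPM and in Tg males at 9925, 9448, 9046 and 9403 CPM. Every Tg library was above every WT library, with the lowest Tg value in the Tg female rich in fat markers. The rise was 2.88-fold (log2 fold change 1.53, SE 0.08). The counts do not separate transcripts of the transgene from those of the endogenous gene.

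Slc25a39 had the largest change after Slc25a4 among called members. It encodes the carrier that imports glutathione, the main thiol of the cell, into mitochondria. It lies on chromosome 11 from 102402985 to 102407946 on the minus strand. WT females were at 57.6, 63.1, 29.9 and 48.8 CPM and WT males at 56.95, 42.2, 40.0 and 43.7 CPM. Tg females were at 96.3, 92.4, 87.0 and 101.5 CPM and Tg males at 94.1, 77.1, 85.6 and 90.5 CPM. The genotypes did not overlap. Among WT libraries the 3 highest were the 3 rich in fat markers. The rise was 1.90-fold (log2 0.92, SE 0.12, adjusted p = 3.91e-05), and without the 4 libraries rich in fat markers it was 2.17-fold (log2 1.12, SE 0.11). Slc25a40, the paralogue with the same reported substrate, was at 5.003 ± 0.842 CPM in WT and 4.92 ± 0.552 CPM in Tg muscle (SD, n = 8 each). Its log2 difference was -0.03 with a 95% interval from -0.25 to 0.20.

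Slc25a16, a carrier linked to coenzyme A supply, fell. It lies on chromosome 10 from 62920633 to 62946498 on the plus strand. WT females were at 34.3, 30.1, 38.5 and 37.1 CPM and WT males at 36.9, 38.7, 33.8 and 36.0 CPM. Tg females were at 26.95, 28.3, 27.3 and 28.0 CPM and Tg males at 25.8, 29.9, 28.8 and 29.96 CPM. The highest Tg library, at 29.96 CPM, lay just below the lowest WT library, at 30.1 CPM. Slc25a16 fell by 0.34 on the log2 scale (SE 0.06, adjusted p = 0.000207), to 0.789 of the WT level. The other carrier linked to coenzyme A, Slc25a42, was at 41.9 ± 6.41 CPM in WT and 46.6 ± 3.49 CPM in Tg muscle (SD, n = 8 each) and was not called (log2 0.16, 95% interval from -0.0044 to 0.32).

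Of the 39 tested members, Slc25a4 and Slc25a39 were thus above in all 8 Tg libraries and Slc25a16 was below. Among all tested genes 5.23% lay entirely above and 2.69% entirely below, and the shares of the members were no larger. The 250 bases before the RefSeq start of these 3 genes are shown because they are the members whose genotypes do not overlap. They come from RefSeq (build GRCm38.p6), whose starts can differ from the gene positions given above. The Slc25a16 window ends just before the gene as positioned above. The Slc25a39 window lies wholly inside its gene, and most of the Slc25a4 window does too. For Slc25a39 and Slc25a4 the motif counts below thus include bases within the gene. Slc25a4 is from chr8:46211063-46211312 (minus strand), Slc25a39 from chr11:102407518-102407767 (minus strand) and Slc25a16 from chr10:62920383-62920632 (plus strand). Capitals mark matches, on either strand, to the GC box (GGGCGG) or the CCAAT box (CCAAT).
Slc25a4: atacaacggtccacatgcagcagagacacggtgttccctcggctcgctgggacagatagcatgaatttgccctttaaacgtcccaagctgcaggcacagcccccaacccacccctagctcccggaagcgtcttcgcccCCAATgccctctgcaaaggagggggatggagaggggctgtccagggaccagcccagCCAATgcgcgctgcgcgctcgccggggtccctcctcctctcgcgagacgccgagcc
Slc25a39: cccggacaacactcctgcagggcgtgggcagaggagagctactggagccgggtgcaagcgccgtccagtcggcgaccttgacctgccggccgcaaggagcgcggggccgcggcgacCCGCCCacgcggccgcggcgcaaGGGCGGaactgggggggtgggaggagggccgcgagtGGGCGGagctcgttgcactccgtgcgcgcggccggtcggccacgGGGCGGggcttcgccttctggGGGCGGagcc
Slc25a16: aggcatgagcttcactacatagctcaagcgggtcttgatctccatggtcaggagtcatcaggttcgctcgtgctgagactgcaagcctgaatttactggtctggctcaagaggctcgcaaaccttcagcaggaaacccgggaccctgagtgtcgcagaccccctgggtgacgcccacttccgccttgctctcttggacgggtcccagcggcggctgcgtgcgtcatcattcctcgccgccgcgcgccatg
The Slc25a39 stretch held 5 GC boxes, 35 CpG and 77.2% GC. The Slc25a4 stretch held 2 CCAAT boxes, 18 CpG and 64.8% GC, and the Slc25a16 stretch neither motif, 18 CpG and 60.8% GC. The median promoter had 6 CpG and 52.4% GC. The 45 promoters listed for 35 members were searched on both strands for 4 motifs, none of which contains another. The called members Slc25a27 and Slc25a32 had no promoter listed and were not searched. GC boxes were in 32 of the 45, beside 32.7% of 32851 mouse promoters, and CCAAT boxes in 21 of the 45, beside 33.8%. The composite CEBP-ATF element (TGATGNAAN), through which ATF4 acts, was in 0 of the 45 and in 3.44% of all promoters. The element of the estrogen-related receptors (TNAAGGTCA) was in 0 of the 45 and in 1.14% of all. With shares this low, 0 of 45 does not set the members apart from all promoters. Alternative promoters of 1 gene can share bases, and the windows end at the RefSeq start.

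**Figure D2:**
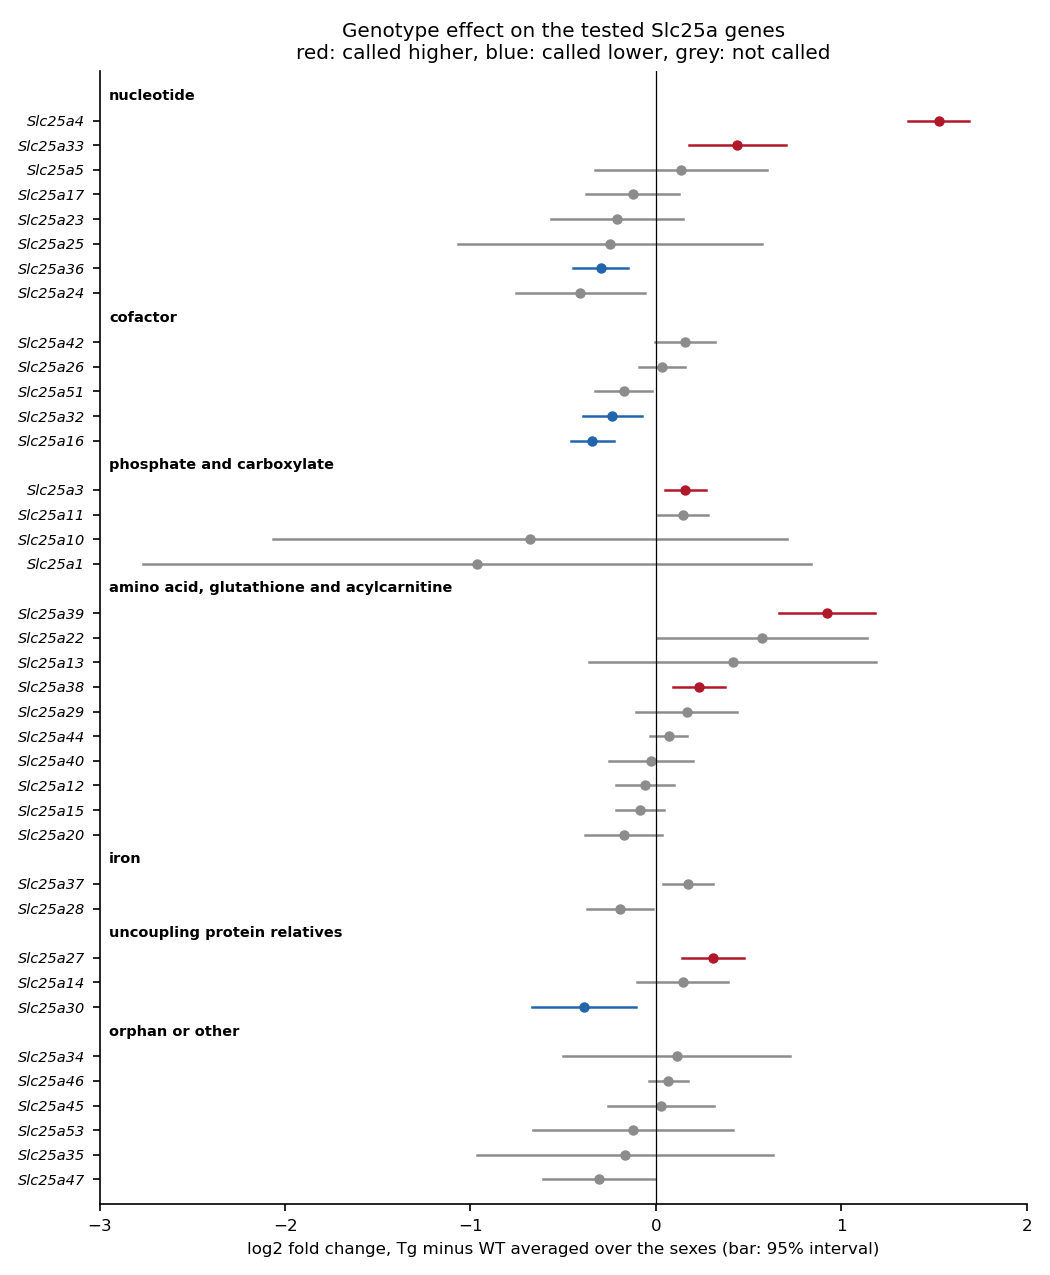
Log2 fold change, Tg minus WT averaged over the sexes, of 38 of the 39 tested members grouped by what they carry; bars are 95% intervals of the edgeR fit, red is called higher, blue called lower and grey not called. The 10 called members lie between -0.39 and 1.53, and the longest bars belong to Slc25a1 and Slc25a10.

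Among the 8 tested nucleotide carriers, 2 rose (Slc25a4 and Slc25a33), 1 fell (Slc25a36) and 5 were not called, with a median log2 fold change of -0.17. Slc25a33 and Slc25a36 are both pyrimidine nucleotide carriers. Slc25a33 was at 8.97 to 15.7 CPM in WT (median 14.3) and 12.8 to 23.99 CPM in Tg libraries (median 18.4). The ranges overlapped through Tg male 3 alone, at 12.8 CPM, and every other Tg library lay above all WT libraries. Slc25a33 rose 1.36-fold (log2 0.44, SE 0.12, adjusted p = 0.0132). Slc25a36 was at 26.9 to 37.2 CPM in WT (median 31.5) and 21.9 to 28.3 CPM in Tg libraries (median 26.6), with the ranges overlapping at their ends. It fell by 0.30 on the log2 scale (SE 0.07, adjusted p = 0.00397).

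Neither other ADP/ATP carrier was called with all libraries. Slc25a5, which encodes the widely expressed form ANT2, was at 40.9 ± 16.6 CPM in WT and 44.7 ± 9.26 CPM in Tg muscle (SD, n = 8 each; log2 0.13, 95% interval from -0.33 to 0.60). A pseudogene of the same name is annotated, and its reads could be split with the gene. Slc25a31, the testis form, had 0 or 1 counts per library, and a count of 0 allows up to 3. The calcium-regulated ATP-magnesium/phosphate carriers were also not called. Slc25a24 was at 5.13 ± 1.43 CPM in WT and 3.87 ± 0.794 CPM in Tg (SD, n = 8 each; adjusted p = 0.0713), and Slc25a23 at 19.9 ± 6.48 and 17.2 ± 2.49 CPM. Slc25a25 had the widest spread of the 3, at 12.2 to 79.9 CPM in WT and 11.1 to 80.02 CPM in Tg libraries. The peroxisomal member Slc25a17 had a log2 difference of -0.13 (95% interval from -0.38 to 0.13).

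Among the 6 tested carriers of cofactors, none rose, 2 fell (Slc25a16 and Slc25a32) and 4 were not called, with a median log2 fold change of -0.20. Slc25a32 carries folate or flavin nucleotides into mitochondria. It was at 7.31 to 11.2 CPM in WT (median 9.68) and 7.53 to 9.56 CPM in Tg libraries (median 8.15), and the overlap came from 1 low WT male. It fell by 0.24 on the log2 scale (SE 0.07, adjusted p = 0.0251). The call was lost without Tg female 2, WT male 2 or WT male 3 (adjusted p = 0.0533, 0.0512 and 0.0523). Slc25a51, the carrier of NAD, was at 94.3 ± 11 CPM in WT and 83.6 ± 8.38 CPM in Tg muscle (SD, n = 8 each) and was not called (adjusted p = 0.0813). Slc25a26, the S-adenosylmethionine carrier, had a log2 difference of 0.03 with a 95% interval from -0.09 to 0.16.

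Of the 4 tested carriers of phosphate and carboxylates, 1 rose. Slc25a3, the phosphate carrier that feeds ATP synthesis together with Slc25a4, was at 368 to 498 CPM in WT (median 433) and 444 to 502 CPM in Tg libraries (median 480). The ranges overlapped over most of the Tg range. It rose 1.12-fold (log2 0.16, SE 0.05, adjusted p = 0.0314), the smallest called change in the family. The call was lost in 10 of the 16 fits that left out a library, with adjusted p up to 0.0841. It was kept without WT female 2 or 4, Tg female 4, WT male 2, or Tg male 3 or 4. Slc25a11, the oxoglutarate/malate carrier, was at 207.9 ± 21.4 CPM in WT and 230.4 ± 20.1 CPM in Tg (SD, n = 8 each; log2 0.15, adjusted p = 0.101). Its exons overlap those of Rnf167 on the other strand. Slc25a1, the citrate carrier, and Slc25a10, the dicarboxylate carrier, are given with the fat markers below.

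Of the 10 tested carriers of amino acids, glutathione and acylcarnitine, 2 rose (Slc25a39 and Slc25a38) and none was called lower, with a median log2 fold change of 0.12. Slc25a38, the glycine carrier needed for heme synthesis, was at 10.4 to 13.8 CPM in WT (median 11.6) and 12.6 to 15.4 CPM in Tg libraries (median 13.6). The highest WT library, WT female 4, lay among the Tg libraries. It rose 1.17-fold (log2 0.23, SE 0.07, adjusted p = 0.014). Slc25a12, the aspartate/glutamate carrier of muscle, was at 413 ± 49.6 CPM in WT and 398 ± 37.6 CPM in Tg (SD, n = 8 each), and its log2 difference was -0.06 with a 95% interval from -0.21 to 0.10. Its paralogue Slc25a13, the form of liver, was at 0.188 to 1.35 CPM. Slc25a20, the acylcarnitine carrier of fatty acid oxidation, was at 65.0 ± 10.4 and 57.8 ± 8.23 CPM (log2 -0.17, 95% interval from -0.38 to 0.03). Slc25a44, the carrier of branched-chain amino acids, had an interval from -0.03 to 0.17 and the ornithine carrier Slc25a15 from -0.22 to 0.04.

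Both mitoferrins, which bring iron to the matrix, missed the threshold, in opposite directions. Slc25a37 was at 20.98 to 29.8 CPM in WT (median 26.9) and 25.5 to 33.6 CPM in Tg libraries (median 29.6), a log2 difference of 0.17 (SE 0.06, adjusted p = 0.0531). It was called when WT female 1 or 3, Tg female 4, WT male 4 or Tg male 2 was left out (adjusted p from 0.0342 to 0.0477). Slc25a28 was at 23.1 ± 4.84 CPM in WT and 19.9 ± 2.85 CPM in Tg (SD, n = 8 each; log2 -0.19, adjusted p = 0.0918). It was called without Tg male 2 (log2 -0.26, adjusted p = 0.0121). The sum of 7 erythroid markers, which matters for carriers of heme synthesis, was 60.2 to 111 CPM in WT and 69.1 to 139 CPM in Tg libraries. Of its 5 tested genes 1 was called higher, and the part of blood cells in the values of Slc25a37, Slc25a38 and Slc25a39 was not tested.

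Among the 3 relatives of the uncoupling proteins, Slc25a27 rose and Slc25a30 fell. Slc25a27, also named UCP4, was at 10.4 to 16.4 CPM in WT (median 13.5) and 14.3 to 18.6 CPM in Tg libraries (median 15.99). In females, the Tg library rich in fat markers was the lowest of the 4 Tg libraries. The rise was 1.24-fold (log2 0.31, SE 0.08, adjusted p = 0.00742). Slc25a30 was at 2.21 to 5.26 CPM in WT (median 3.30) and 2.11 to 3.39 CPM in Tg libraries (median 2.62), so most of the Tg range lay within the WT range. It fell by 0.39 on the log2 scale (SE 0.13, adjusted p = 0.036). The call was lost in 10 of the 16 fits that left out a library, with adjusted p up to 0.0774, and was kept without WT female 4, Tg female 4, WT male 2 or 4, or Tg male 2 or 4. Slc25a14 was not called (log2 0.14, adjusted p = 0.374).

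None of the 6 tested members without an assigned role in these groups was called. Slc25a46, a protein of the outer membrane that acts in mitochondrial shape, was the most abundant of them at 53.4 ± 3.29 CPM in WT and 55.97 ± 3.88 CPM in Tg muscle (SD, n = 8 each). Over all 29 members not called, the 95% interval lay inside -0.5 to 0.5 on the log2 scale for 17 and reached past it for 12, which were Slc25a1, Slc25a5, Slc25a10, Slc25a13, Slc25a22, Slc25a23, Slc25a24, Slc25a25, Slc25a34, Slc25a35, Slc25a47 and Slc25a53. For those 12 a change of that size lay within the interval. Exons of Slc25a10, Slc25a23, Slc25a25, Slc25a26, Slc25a33, Slc25a35, Slc25a37 and Slc25a46 overlap a gene on the other strand, as those of Slc25a11 do, and Slc25a47 and Slc25a51 each hold an annotated miRNA, so their counts are less certain.

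The 7 members with too few counts to test were Slc25a2 (1 to 10 counts per library), Slc25a18 (1 to 7), Slc25a21 (0 to 3), Slc25a31 (0 to 1), Slc25a41 (0 to 3), Slc25a43 (0 to 7) and Slc25a48 (0 to 15). Slc25a48 had 13, 15, 12 and 4 counts in the 4 libraries rich in fat markers (WT female 1, WT female 2, Tg female 4 and WT male 1) and 0 or 1 count in each of the others.

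**Figure D3:**
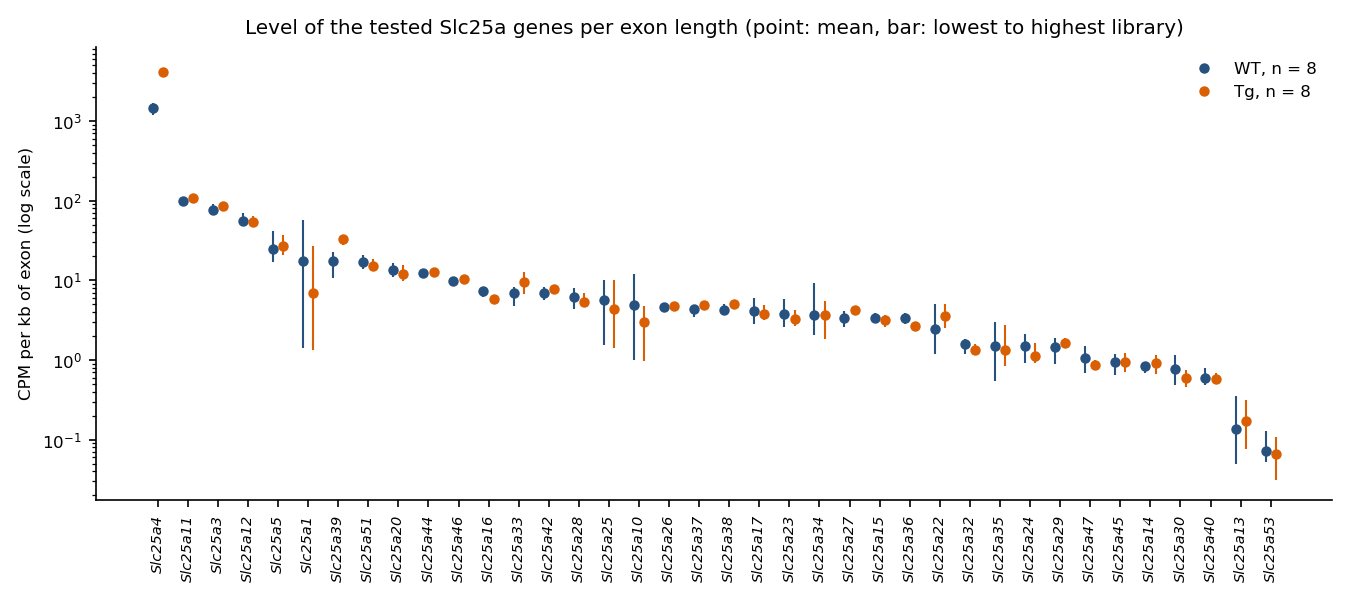
Level per exon length (CPM per kb, log axis) of 38 of the 39 tested members, ordered by their WT mean, with points at the mean of 8 libraries and bars from the lowest to the highest library. Slc25a4 lies far above every other member in both genotypes, and Slc25a39 was at 17.3 CPM per kb in WT and 32.9 in Tg muscle.

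Levels of different genes were compared per kb of exon. The length is that of all annotated exons of a gene merged, not that of the expressed transcript. The order and the shares below depend on it. Slc25a3 (5.55 kb) had more CPM in WT muscle than Slc25a11 (2.12 kb), 427.9 against 207.9, and stood below it per kb. In WT muscle Slc25a4 was at 1440 ± 173 CPM per kb (SD, n = 8), Slc25a11 at 98.1 ± 10.1, Slc25a3 at 77.1 ± 7.20, Slc25a12 at 56.3 ± 6.76 and Slc25a5 at 24.9 ± 10.1. Each step from Slc25a4 down to Slc25a12 and on to Slc25a5 was larger than the SD of either neighbour. Slc25a5, Slc25a1 (17.6 ± 23.7), Slc25a39 (17.3 ± 3.98) and Slc25a51 (17.1 ± 2.00) could not be ordered by their spread. In Tg muscle Slc25a4 stood at 4150 ± 372 CPM per kb and Slc25a39 at 32.9 ± 2.69. Slc25a4 made up 76.5% ± 3.43 of the summed level per kb of the family in WT and 89.98% ± 0.983 in Tg muscle (SD, n = 8 each). The rest of the family summed to 439 ± 52.9 CPM per kb in WT and 459 ± 26.3 in Tg muscle, a difference smaller than the SD of either genotype. This sum was 498.3, 525.7, 444.9 and 504.9 CPM per kb in WT female 1, WT female 2, WT male 1 and Tg female 4, the libraries rich in fat markers. In the other libraries it was 371.1 to 444.3 in WT and 427.1 to 479.4 in Tg. Those ranges overlapped, and the difference was not tested. All members together took 0.514% ± 0.0442 of counts in WT and 1.19% ± 0.0526 in Tg muscle.

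Tested within each sex, 5 members were called in females, beside 17.7% of all tested genes, and 7 in males, beside 18.2%. Slc25a4, Slc25a39 and Slc25a16 were called in both. In females Slc25a33 (log2 0.66, SE 0.18) and Slc25a3 (0.26, SE 0.08) also rose. In males Slc25a38 (0.30, SE 0.09) and Slc25a27 (0.34, SE 0.11) rose, and Slc25a36 (-0.37, SE 0.10) and Slc25a28 (-0.40, SE 0.12) fell. None of these differences between the sexes passed its own test: the male minus female genotype effect was called for 0 members by edgeR, beside 0.00732% of all tested genes, and for 0 members by DESeq2, which called 87 genes. At an unadjusted p under 0.05 it held 1 member, Slc25a28, of 1015 genes. For Slc25a4 itself the log2 effect was estimated at 1.68 (SE 0.11) in females and at 1.37 (SE 0.11) in males, with a difference of -0.32 (95% interval from -0.64 to 0.0034, adjusted p = 0.678).

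Between WT males and WT females 1 member was called, beside 3.67% of all tested genes. Slc25a28, mitoferrin 2, was at 21.2, 17.8, 16.5 and 20.4 CPM in WT females and 27.4, 29.9, 26.8 and 24.9 CPM in WT males. All 4 WT males lay above all 4 WT females (log2 0.52, SE 0.12, adjusted p = 0.0208). In Tg mice the females were at 17.4 to 22.1 CPM and the males at 18.6 to 25.95 CPM, which overlapped. The call between WT sexes was lost when WT female 2, WT male 2 or the libraries rich in fat markers were left out. Slc25a25 also had no overlap between WT females (49.5 to 79.9 CPM) and WT males (12.2 to 43.0 CPM) but was not called (log2 -1.44, SE 0.55, adjusted p = 0.201). Slc25a3, Slc25a14 and Slc25a32 likewise had no overlap between the WT sexes and were not called. The share of all tested genes without overlap between the WT sexes was not computed.

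**Figure D4:**
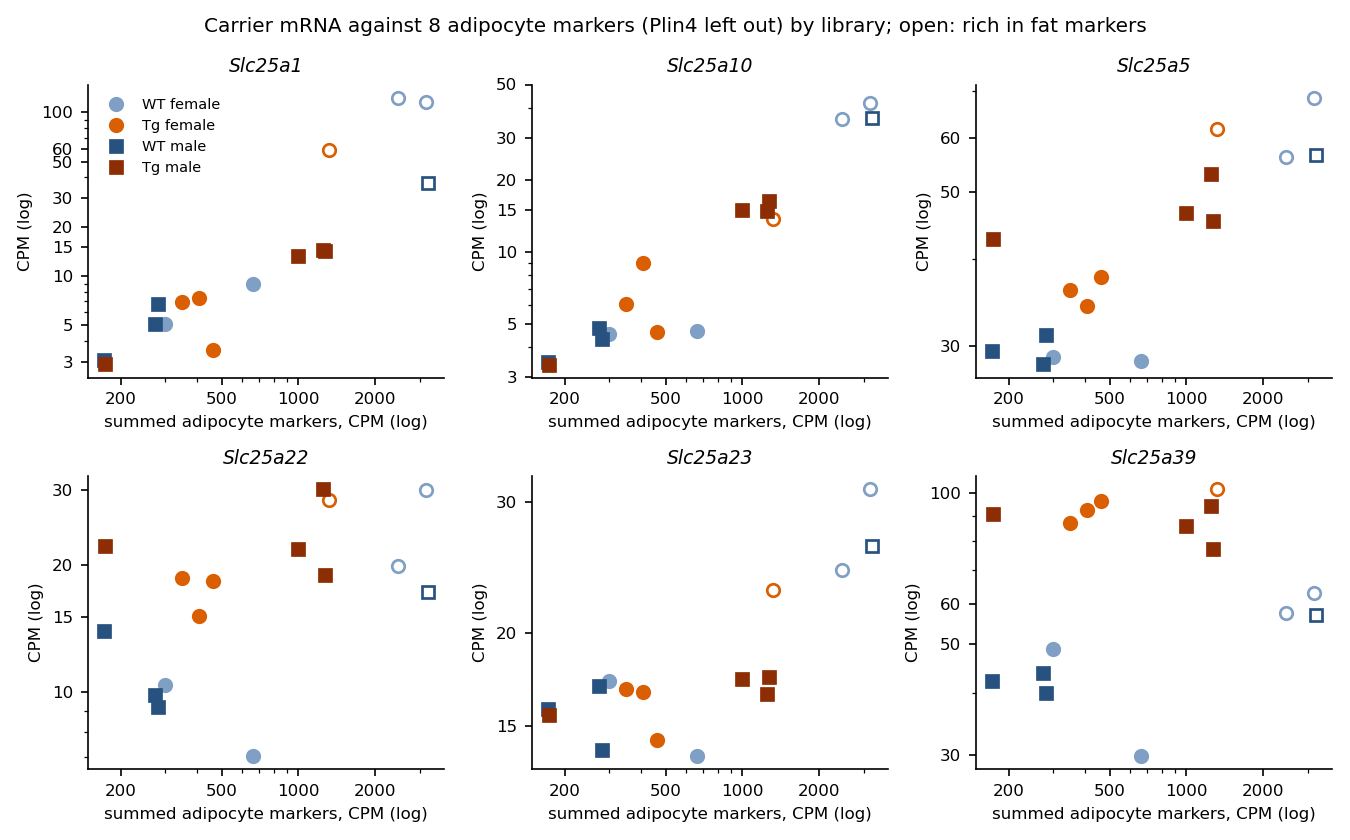
Level of 6 members (CPM, log axis) against the summed CPM of 8 adipocyte markers (log axis), 1 point per library, with open points for the 4 libraries rich in fat markers. Slc25a1 and Slc25a10 climb with the fat markers in both genotypes, while Slc25a39 separates by genotype in all 16 libraries.

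Several members were highest in the libraries rich in fat markers. Slc25a1, whose export of citrate feeds fatty acid synthesis, was at 122, 116, 37.2 and 59.1 CPM in WT female 1, WT female 2, WT male 1 and Tg female 4, and at 2.90 to 14.3 CPM in the other 12 libraries. Slc25a10 was at 35.8, 41.9, 36.1 and 13.7 CPM in the same 4 and at 3.39 to 16.3 CPM in the others. Of the 39 tested members 4 were higher in each of these 4 libraries than in any other (Slc25a1, Slc25a5, Slc25a23 and Slc25a35), as were 2.58% of all tested genes. With 3 of the 4 in WT, the averaged log2 difference was -0.96 (SE 0.83) for Slc25a1 and -0.68 (SE 0.64) for Slc25a10, neither called. Without these 4 libraries it was 0.44 for Slc25a1 and 1.01 for Slc25a10, again uncalled. Leaving out 1 library at a time moved it from -1.81 (without Tg female 4) to -0.27 (without WT male 1) for Slc25a1. For Slc25a10 it ran from -0.86 (without Tg female 4) to 0.08 (without WT male 1). These 4 libraries were chosen after the data were seen, and the part of fat cells in these values was not tested.

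**Figure D5:**
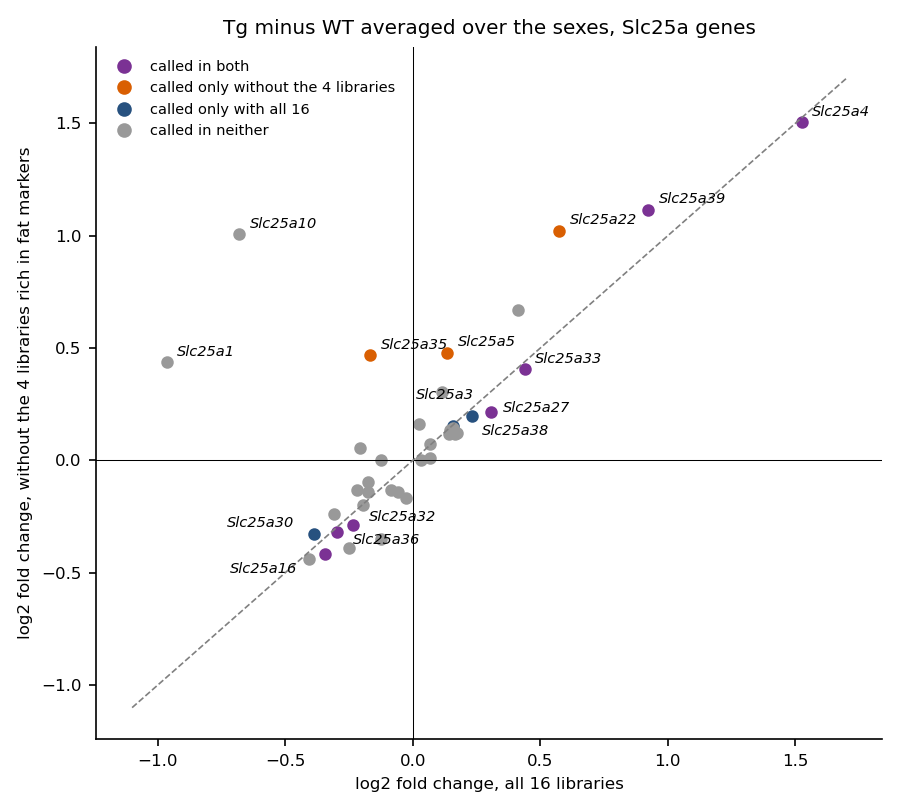
Log2 fold change of the 39 tested members without the 4 libraries rich in fat markers (vertical) against that from all 16 libraries (horizontal), with a dashed line where the values are equal. Slc25a5, Slc25a22 and Slc25a35 are called without those libraries and not with them, and Slc25a1 and Slc25a10 change sign without being called.

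Without these 4 libraries, which left 5 WT and 7 Tg, 10 members were again called, beside 28.5% of 13827 tested genes, and 7 of them were among the 10 called with all libraries. Higher in Tg were 7 (beside 14.2%) and lower were 3 (beside 14.3%). Slc25a3, Slc25a38 and Slc25a30 were no longer called. Slc25a5 was then at 28.2 to 31.1 CPM in the 5 WT and 34.3 to 53.2 CPM in the 7 Tg libraries, with no overlap. It rose 1.40-fold (log2 0.48, SE 0.06, adjusted p = 0.000115). Slc25a22, a mitochondrial glutamate carrier, was at 7.04 to 13.9 CPM in WT and 15.1 to 30.2 CPM in Tg libraries, again with no overlap. Slc25a22 rose 2.03-fold (log2 1.02, SE 0.16, adjusted p = 0.000441). The share of all tested genes without overlap in these 5 WT and 7 Tg libraries was not computed. Slc25a35 changed from -0.17 to 0.47 on the log2 scale (adjusted p = 0.0403).

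The remaining libraries still differed in fat markers, with Tg males 1, 2 and 3 at 1000 to 1276 CPM for the 8 adipocyte markers. Leaving these out as well kept 5 WT and 4 Tg libraries, with Tg male 4 as the only Tg male. The male part of the averaged difference thus rested on that mouse on the Tg side, so only effect sizes are given. The log2 difference was 1.51 for Slc25a4, 1.15 for Slc25a39, 0.42 for Slc25a5, 0.99 for Slc25a22 and -0.38 for Slc25a16. Tg male 4, with 174 CPM of the adipocyte markers, had 42.9 CPM of Slc25a5 and 22.1 CPM of Slc25a22. WT male 2, with 172 CPM of these markers, had 29.4 and 13.9 CPM. This pair of single libraries was picked after the values were seen, and the part of fat cells in these values was not tested. A covariate over all 16 libraries was the mean log2 CPM of all 9 adipocyte markers, not the sum of 8. With it in the edgeR fit, Slc25a22 was called (log2 0.66, adjusted p = 0.0386) and Slc25a5 was not.

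The relatives of the family that have other symbols were 5 tested genes, of which 1 rose and 1 fell. Among all tested genes 17.2% rose and 13.3% fell. Ucp3, the uncoupling protein of muscle, fell from 256 ± 80.5 to 124 ± 35.1 CPM (SD, n = 8 each), by 1.04 on the log2 scale (SE 0.17, adjusted p = 0.000386). Mtch2, a carrier-like protein of the outer membrane, rose from 136 ± 4.74 to 151.5 ± 5.27 CPM (log2 0.16, SE 0.04). Ucp1, Ucp2 and Mtch1 were not called.

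Of the 13 tested genes that bring carriers to the inner membrane, 5 rose and 2 fell, beside 17.2% and 13.3% of all tested genes. Their median log2 fold change was 0.14. Timm10, a small chaperone of the intermembrane space that escorts carriers, stood at 11.8 ± 1.41 CPM in WT and 19.2 ± 1.63 CPM in Tg muscle (SD, n = 8 each), a 1.62-fold rise (adjusted p = 6.13e-06). Timm8a1, another small chaperone, rose 1.81-fold (log2 0.86, SE 0.11). Tomm40, the pore of the outer membrane, rose 1.34-fold (log2 0.42, SE 0.07). Timm29, a subunit of the TIM22 complex, fell from 87.04 ± 7.02 to 61.9 ± 3.58 CPM (log2 -0.49, SE 0.06). Timm22, which forms the channel of that complex, was at 29.5 ± 2.61 and 27.6 ± 2.57 CPM and was not called.

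Among 15 tested transporters of the inner membrane outside the family, 2 rose and 2 fell, beside 17.2% and 13.3% of all tested genes. The share called was thus no larger than that of all genes (30.4%), and the median log2 fold change was -0.03. Ghitm stood at 509 ± 15.5 CPM in WT and 1897 ± 154 CPM in Tg muscle (SD, n = 8 each), a 3.73-fold rise and a larger log2 difference (1.90, SE 0.06) than that of Slc25a4. Sfxn3, a sideroflexin, rose 1.51-fold (adjusted p = 2.77e-05). Mpc1 and Mpc2, which form the carrier of pyruvate, both fell, by 0.18 (SE 0.06) and by 0.31 (SE 0.06) on the log2 scale.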

How the data were processed

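Quadriceps mRNA of 16 mice (4 groups of 4) was measured. The values the authors deposited have no stated unit and were taken as estimated counts, since they are partly fractional and library totals differ; 93.53% of nonzero values lie within 0.01 of a whole number. Per the submitters' processing notes, the build was mm10 and the tools included TopHat2, Bowtie2 and cutadapt 1.2.1. The sources used here do not give the counting program, its annotation or its use of strand, so a gene and a partner on the other strand may share reads. All 16 libraries matched their sex label, and no pair within a group looked like 1 library (24 pairs, lowest median chi-square 1.23 against 0.455 for resequencing).

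Values were rounded. edgeR 4.0.16 (R 4.3.3) was fitted with TMM factors (0.887 to 1.105), filterByExpr (minimum 10, total 15) and 1 mean per group over all 16 libraries. Genes were called at a two-sided Benjamini-Hochberg adjusted p under 0.05 over 13666 genes. The script was tested on simulated data. Positions and exon lengths are of GENCODE for mm10; all 46 members matched. Alternatives were DESeq2 1.42.0, RLE factors, other filters, an adipocyte covariate and leaving out libraries. The text names Slc25a4 and the 10 other members with the smallest adjusted p in full, uncalled members of at least 50 CPM, the untested members, and up to 4 called genes of each other list; other members named were chosen after their values were seen. For 1 tested member, single values are not reported here. Members and lists were chosen with earlier results of these data known.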

Additional observations from a re-analysis of the deposited data

Results flagged for a closer look

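Over the members named in full and the fat-related ones, 68 groups of 4 libraries were examined for a library far from the other 3, and 12 had one. Chance alone flags about 1 in 20 groups. High values in libraries rich in fat markers were 5 of these: Slc25a1 at 59.1 CPM in Tg female 4 (next 7.38) and 37.2 CPM in WT male 1 (next 6.79), Slc25a10 at 36.1 CPM in WT male 1 (next 4.82), and Slc25a5 at 61.7 CPM in Tg female 4 (next 37.7) and 56.7 CPM in WT male 1 (next 31.1).

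Tg male 4, with the fewest fat markers among Tg libraries, was low for Slc25a1 (2.90 CPM, next 13.3) and Slc25a10 (3.39 CPM, next 14.8). Slc25a27 was low in Tg female 4 (14.3 CPM, next 17.98). Slc25a32 was low in WT male 4 (7.31 CPM, next 9.58) and in Tg male 2 (7.54 CPM, next 8.20). Slc25a3 was high in WT male 2 (498.1 CPM, next 447.3), and Slc25a28 in Tg male 2 (25.95 CPM, next 18.96).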

How the results depend on the processing

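Over the tested members and the alternatives, 833 values kept their side of the threshold, 35 lost a call, 26 gained one and 1 reversed: Slc25a35, at 0.47 without the 4 libraries rich in fat markers. Of the 833, 21 values of 10 members crossed 0 while uncalled in both fits, Slc25a1 and Slc25a10 without those 4 libraries among them. Both ways of leaving out libraries by fat markers were chosen after the data were seen. Of the 10 called members, Slc25a4, Slc25a39, Slc25a16, Slc25a36, Slc25a27, Slc25a33 and Slc25a38 kept their call whichever single library was left out. Members called lower went from 4 to 7 with DESeq2, which added Slc25a24 and Slc25a51 among others. Without the 7 libraries with most adipocyte markers, Tg male 4 was the only Tg male. Counts of members called between genotypes in that fit are therefore not set beside the others here. Members called between WT sexes went from 1 to 2 with DESeq2 and to 0 under either way of leaving out libraries by fat markers; the cause was not tested. RLE factors ended the call of Slc25a3 (adjusted p = 0.0684) and no filter that of Slc25a30 (adjusted p = 0.051).

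Leaving out 1 library at a time gave 5 to 7 members called higher and 2 to 6 lower (2 without Tg female 2 or WT male 3), 3 to 8 in females (3 without WT female 1 or Tg female 2, 8 without WT female 4), 4 to 8 in males (4 without Tg male 1 or 4) and 0 to 1 between WT sexes. Calls were gained by Slc25a24 (without WT female 4 or Tg male 3, lowest adjusted p = 0.0126), Slc25a51 (without WT female 3 or Tg female 4, lowest 0.00908), Slc25a11 (without WT female 4 or WT male 2, lowest 0.0347), Slc25a22 (without WT female 2, 0.0184) and Slc25a47 (without WT female 3, 0.0121). No paired analysis was possible because the labels give no replicate numbers and link no mice. Depth limits the 7 members that were not tested.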

Other observations

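The 4 tested genes within 200 kb of Slc25a4 on chromosome 8 gave mixed values. Lrp2bp was at 12.6 ± 4.88 CPM in WT and 21.6 ± 2.34 CPM in Tg muscle (SD, n = 8 each) and rose 1.78-fold (log2 0.83, SE 0.12, edgeR adjusted p = 5.16e-05). Snx25 fell by 0.26 on the log2 scale (SE 0.09, adjusted p = 0.032). Cfap97, between Snx25 and Slc25a4, had a log2 difference of -0.02 (95% interval from -0.17 to 0.14), and Helt was below 1 CPM in every library.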
